A study of Arabidopsis thaliana with 8 samples.

Results

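Arabidopsis seedlings that had been without sulfate for 48 h (-S) were compared with seedlings kept in full nutrition (FN), 1 array of each condition in each of 2 experiments, which makes 4 of the 8 ATH1 arrays in the series. All seedlings were Col-0, were harvested whole at 9 days, and grew in shaken sterile liquid culture. FN seedlings stayed in 3 mM sulfate throughout, whereas -S seedlings grew in 150 µM sulfate for 7 days and then received medium with 0 sulfate. The FN medium was also replaced with fresh FN medium after 7 days, so both conditions had a change of medium. The other 4 arrays came from starved cultures given 500 µM sulfate for 30 min (30' S) or 3 h (3 h S) and serve here to estimate the spread, with their signals given only where named. The recipes in the study's methods give the starvation medium less potassium nitrate and less ammonium nitrate than FN, so sulfate, the pregrowth medium and the nitrogen supply cannot be told apart in this comparison.

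Sulfate is taken up by root transporters, reduced in plastids and built into cysteine, from which methionine, glutathione, iron-sulfur clusters and glucosinolates are made. Plants short of sulfate are known to switch on sulfate transporters and enzymes that release sulfur from stored compounds, and to slow glucosinolate synthesis. Those sulfur and glucosinolate genes served only as a check here, and the account below is of the other genes on the array.

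The values are MAS5.0 signals, in arbitrary units on a linear scale. The lowest signal taken as measured, the floor, lay between 10.9 and 20.3 on the 8 arrays. Of the marker lists for tissues, 1 gene each could be named. The leaf marker RCA, which encodes Rubisco activase, had signals of 798.5 to 2148.4 on the FN and -S arrays. The root hair expansin EXPA7 had 51.1 to 135.6, the flower gene SEP3 had 16.9 to 52.7, and the seed storage gene SESA1 stayed below the floor on all 4 arrays. Since whole seedlings were harvested, fewer cells of a type and less RNA per cell cannot be told apart in any value below.

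After 48 h without sulfate, 150 probe sets passed the test as raised and 93 as lowered relative to FN, at an adjusted p limit of 0.05 (limma with Benjamini-Hochberg adjustment over 17138 probe sets, experiment as a block). These were 0.875% and 0.543% of the probe sets tested, and 3623 (21.1%) had an unadjusted p under 0.05 in either direction. Of the called probe sets, 132 of the higher and 78 of the lower lay outside the sulfur and glucosinolate lists. The other 18 and 15 lay in these lists, which had few tested members. There were 9 for sulfur starvation markers, 13 for sulfate transport and assimilation and 21 for glucosinolate synthesis. That most calls lay outside therefore follows from the size of the lists. Lists were matched by gene name, so genes that the tables used here give only as a locus number (58 of the 132 and 41 of the 78) are in a list only where RefSeq gives a matching synonym. All 243 called probe sets moved the same way in both experiments. The rises had a median of 1.82 and the falls a median of -1.37 in fitted log2 fold change. Fitted log2 fold changes and log2 ratios are of signal plus 16, which understates the change of dim genes, while the counts by fold alone and the folds given as "at least" are of the signals without that offset. The calls rest on 2 arrays per condition. When the first -S array was left out, 22 of the 132 and 4 of the 78 were still called. When the second was left out, 49 and 8 were. Without 1 resupply array, 63 or 67 and 22 or 30 were, and with the first FN array left out 122 and 72 were. Without the FN array of experiment 2 the fit called 2734 probe sets higher and 2126 lower, so that it also called all 132 and 78 is no sign of stability. A fit with no replicate block called 84 higher and 35 lower, and kept 67 of the 132 and 23 of the 78. A fit of only the 4 FN and -S arrays, paired within experiment, kept 14 of the 132 and 2 of the 78. By fold alone, with no test, 225 probe sets (0.989% of 22746) were more than 2-fold higher in both experiments and 136 (0.598%) more than 2-fold lower. Of the called probe sets outside the lists, 14 of the higher and 28 of the lower could not be assigned to 1 gene and are not described further.

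The ratios were spread more widely in experiment 1 than in experiment 2. The log2 ratio lay above 1 for 858 probe sets in experiment 1 and 164 in experiment 2, with 146 in both, which is 17.0% of the first set and 89.0% of the second. Below -1 lay 929 and 153 probe sets, with 80 in both, 8.61% and 52.3%. The log2 ratios had an SD of 0.68 in experiment 1 and 0.385 in experiment 2, and correlated across probe sets with r = 0.595, a description only, since probe sets are not independent and each pair of ratios shares its experiment's arrays. Of the 150 rises, 129 were larger in experiment 1, and of the 93 falls, 61 were.

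**Figure D1:**
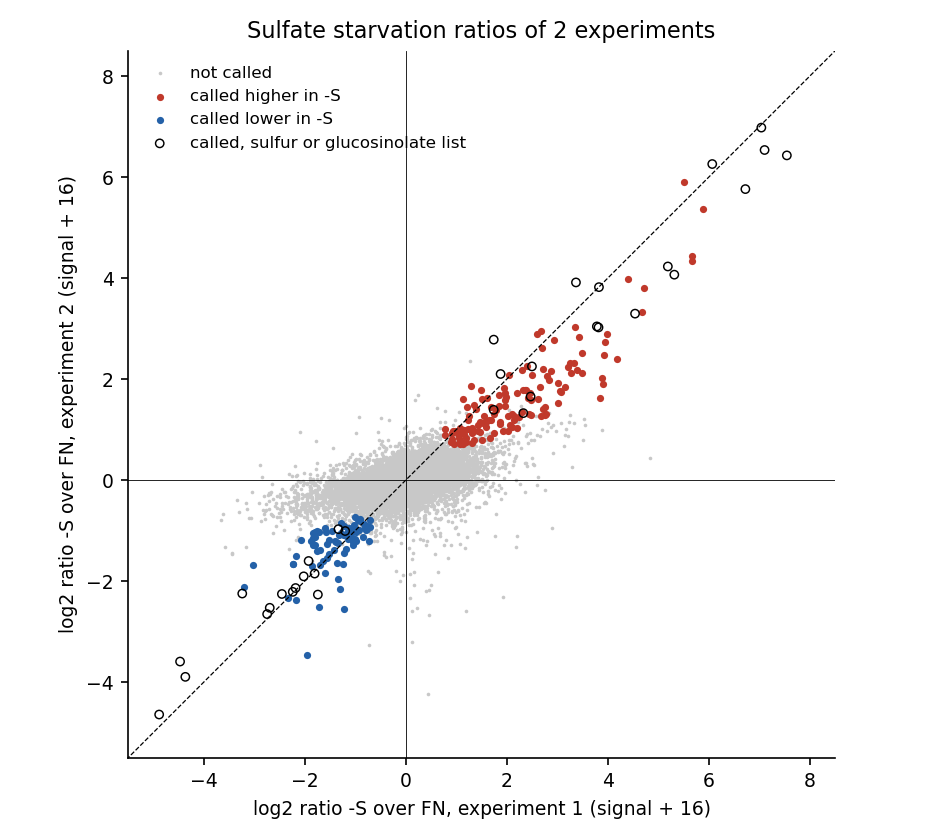
Each point is 1 of 17138 probe sets, with the log2 ratio of -S over FN (signal plus 16) in experiment 1 on the x axis and in experiment 2 on the y axis, red for the called rises, blue for the called falls, open circles for called genes of the sulfur and glucosinolate lists, and grey for the rest. Called points lie at the upper right and the lower left, and most of the rises lie below the dashed line of equal ratios, larger in experiment 1.

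Outside the sulfur and glucosinolate lists, the 15 largest rises were in genes of varied roles and in loci for which the tables used here give no role. AT1G12030, which the study's tables list as a hypothetical protein, gave 35.4 and 14.8 in FN (experiment 1, then experiment 2) against 2335 and 1823.4 in -S, a log2 fold change of 5.71 (SE 0.25, adjusted p = 0.00018). AT3G05400, listed there as a putative sugar transporter, had 12.8 and 35.7 in FN and 1453.9 and 1031.5 in -S, a change of 5.01 (SE 0.38, adjusted p = 0.0016). For both genes the lowest -S signal was far above the highest FN signal. That is no added support, since they were picked as the largest called rises. ADC2, arginine decarboxylase, which makes the precursor of putrescine from arginine, had 83.4 and 164.2 in FN and 2596.3 and 2484.3 in -S, a change of 4.26 (SE 0.25, adjusted p = 0.00059). AT4G31330, a hypothetical protein in the study's tables, had 22.0 and 44.6 in FN and 786.3 and 943.2 in -S, a change of 4.19 (SE 0.20, adjusted p = 0.00022). Its -S signal was higher in experiment 2 than in experiment 1.

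BCA3, a beta carbonic anhydrase, and PYD4, a putative aminotransferase, changed by 5.62 and 5.05. ICS2, isochorismate synthase, changed by 4.00, and NSP5, a nitrile specifier protein that steers glucosinolate breakdown towards nitriles, by 3.20. AT1G75290, listed as a putative NADPH oxidoreductase, was below the floor on both FN arrays (3.2 and 9.2) and had 289.6 and 169.9 in -S, at least 14.5-fold higher. It stands beside AT1G75280 and DHAR2 on the chromosome, and all 3 of these neighbours rose. The remaining members of the 15 largest rises were PELPK1 (3.33), PAP1 (3.29), AT1G66760 (3.19), AT3G56200 (3.13), AT4G01870 (2.95) and AT5G37990 (2.90), of which AT4G01870 is listed as a tolB-related protein. All 15 stayed called without the first FN array, and 10 of the 15 did when the first -S array was left out. With the second left out, 13 did, without 1 resupply array 12 or 13 did, and in the fit of only the FN and -S arrays 8 did.

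**Figure D2:**
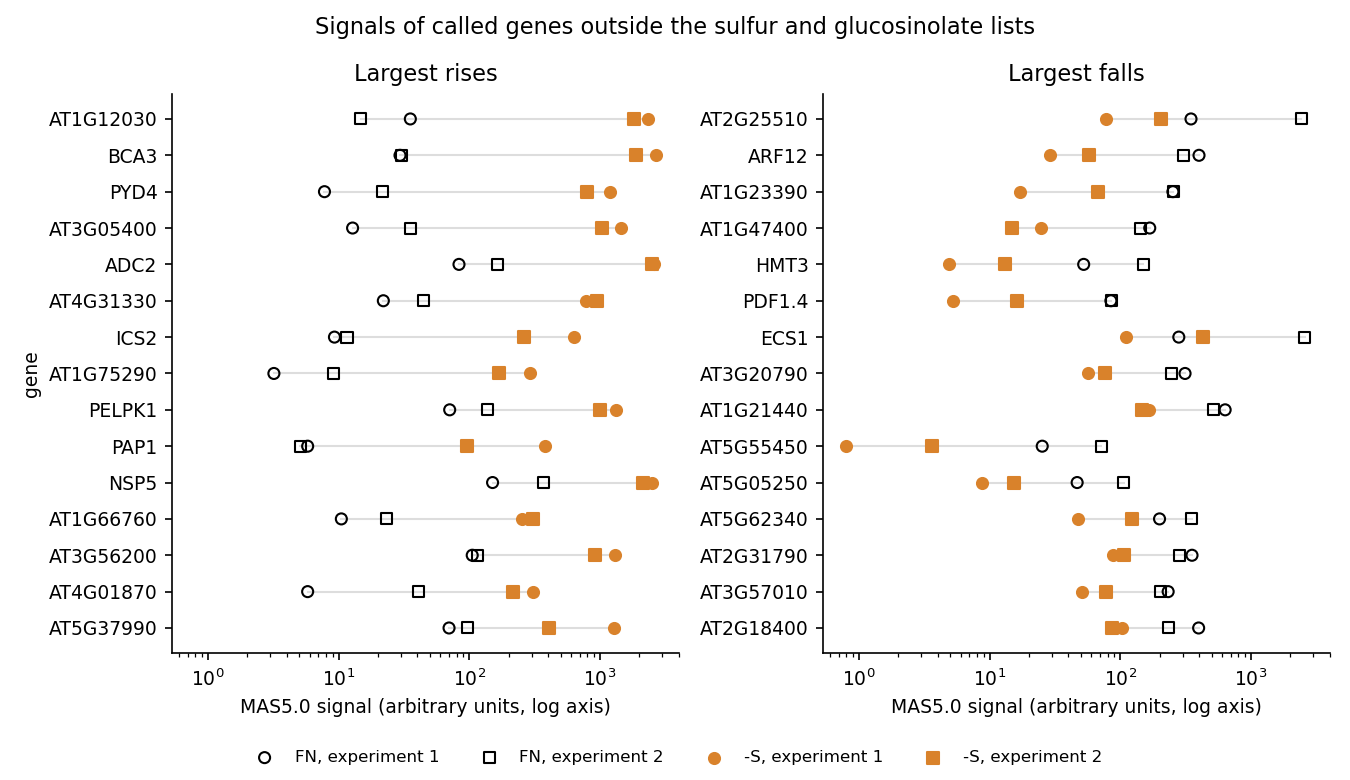
Signals of the 15 genes with the largest called rises (left) and the 15 with the largest called falls (right) outside the sulfur and glucosinolate lists, in MAS5.0 units on a log axis, 1 point per array, open for FN and filled for -S, circles for experiment 1 and squares for experiment 2. The filled and open points of a gene do not mix, except for ECS1, whose FN signal in experiment 1 (280.5) lies under its -S signal in experiment 2 (430.0). The genes were picked by the size of their called change, so this separation follows largely from the choice.

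Genes for suberin, the waxy polymer that seals root endodermis and periderm, were higher in starved seedlings on every array pair. Of 17 members tested, 8 were called higher, 0 lower, and the median log2 fold change was 1.57, against 0.05 over all probe sets tested. All 17 had a higher signal in -S in both experiments, which was so for 38.9% of all probe sets. Of these members 16 carry their name only through the study's tables, which were drawn from these samples, so the direction of the list is no independent evidence; over all 516 tested probe sets named that way the median was 0.705. One of those tables ranks genes by large ratios in experiment 1. In experiment 2 their median signal was 18.0 in FN and 73.6 in -S, against 13.8 and 134.0 in experiment 1.

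The called members span the pathway from chain building to export. KCS2, which elongates fatty acids, had 29.1 and 39.0 in FN and 382.8 and 182.4 in -S, a change of 2.5 (SE 0.29, adjusted p = 0.0095). CYP86B1, which hydroxylates very long chains, had 10.0 and 12.8 in FN and 195.2 and 92.7 in -S, a change of 2.47. The fatty acyl reductases FAR4 and FAR5 changed by 2.1 and 1.51, the acyltransferase GPAT5 by 1.57, and RWP1, the feruloyl transferase also called ASFT, by 1.59. Of the exporters, ABCG6 had 16.7 and 37.6 in FN and 351.9 and 218.3 in -S, a change of 2.81 (SE 0.31, adjusted p = 0.0083), and ABCG20 changed by 2.02. CYP86A1, another chain hydroxylase, had 49.3 and 60.6 in FN and 476.6 and 146.8 in -S and missed the limit (adjusted p = 0.078). Of the regulators, MYB93 and MYB41 were not called, with MYB93 at 1.7 (adjusted p = 0.075) and MYB41 at 0.45 (adjusted p = 0.23). None of the 8 calls lasted when the first -S array was left out, 4 did when the second was, 5 did without any 1 resupply array or the replicate block, and all 8 did without the first FN array. In the fit of only the FN and -S arrays 0 of the 8 were called, and with no filter on dim probe sets 1 was.

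**Figure D3:**
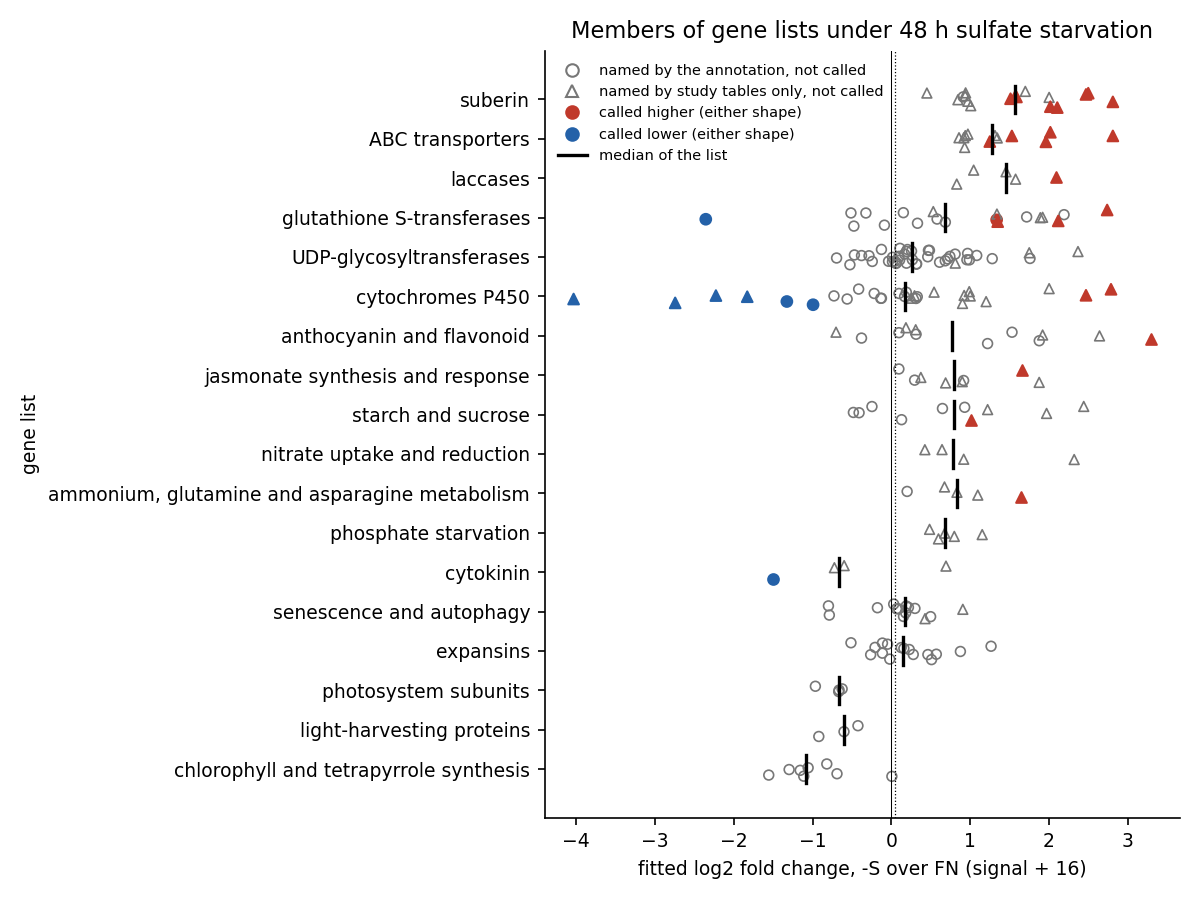
Fitted log2 fold change of -S over FN for the tested members of 18 gene lists, 1 point per probe set, red for called higher, blue for called lower and open for not called, circles for genes named by the array annotation and triangles for genes named only through the study's tables, black bars for list medians, and a dotted line for the median of all probe sets. Suberin, laccases and ABC transporters lie wholly above 0. All of these except 1 suberin gene are named only through the study's tables, so their direction is no independent evidence. Photosystem, light-harvesting and chlorophyll genes lie at or below 0 with the single exception of HEMA2 just above it, and expansins on both sides.

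Single other wall genes also rose, several of them chosen after their values were seen. The proline-rich wall proteins PELPK1 and PELPK2, neighbours on chromosome 5, changed by 3.33 and 2.82, with PELPK1 at 70.8 and 137.9 in FN and 1318.9 and 1002.1 in -S. Of the list for the Casparian strip, the barrier of the root endodermis, 2 members were tested and 0 called. From the wider family of Casparian strip membrane protein-like genes, 3 called genes were chosen after their values were seen. The tested members of that family were not counted, so these 3 do not describe the family. AT4G20390 (CASPL1B2) changed by 2.46 and AT3G06390 (CASPL1D2) by 1.25. AT1G03700 (CASPL1C2), below the floor on both FN arrays, was at least 3.47-fold higher. The laccase LAC13, of a family that oxidises lignin monomers, had 21.5 and 21.5 in FN and 188.7 and 107.6 in -S, a change of 2.08 (SE 0.20, adjusted p = 0.0045). It was the 1 member called of 5 laccases tested, all 5 named only through the study's tables. The cellulose synthase-like gene CSLG3 changed by 2.43 and the glycosyl hydrolase GH9B8 by 1.03. Of 16 expansins, which loosen walls, 0 were called in either direction, with a median of 0.14. Of these 8 called wall genes, 2 lasted without the -S array of experiment 1, 6 without that of experiment 2, 7 without any 1 resupply array, 8 without the first FN array, 5 without the replicate block and 0 in the fit of only the FN and -S arrays. Of 9 xyloglucan endotransglucosylases tested, which remodel wall polymers, 0 were called.

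Single transporter genes were called higher, many of them chosen after their values were seen. Of the fixed lists, the amino acid transporters had 1 call among 5 tested, with 3 higher in both experiments and 2 in opposite directions, and the NPF peptide and nitrate transporters had 1 among 3. All tested members of both lists are named only through the study's tables, so these counts are no independent evidence about the families. AT3G56200, listed as an amino acid transporter family protein, had 105.3 and 114.7 in FN and 1297.7 and 910.7 in -S, a change of 3.13 (SE 0.25, adjusted p = 0.0021). The sugar exporter SWEET13 had 18.3 and 26.9 in FN and 131.4 and 90.6 in -S (1.71, SE 0.22, adjusted p = 0.013). Both sets of starved signals lay above both FN signals, which is no added support for genes picked as called. The sugar transporter relatives SFP1 and ESL1 changed by 2.07 and 2.03.

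On the nitrogen side, AMT1;2, an ammonium transporter, had 58.9 and 105.7 in FN and 252.2 and 318.4 in -S, a change of 1.65 (SE 0.21, adjusted p = 0.014). GDU4, a glutamine dumper that promotes amino acid export, had 54.2 and 97.2 in FN and 182.5 and 329.8 in -S, a change of 1.56. Both -S signals lay above both FN signals for either gene, which is no added support for genes picked as called. The ratio of GDU4 was close to equal in the 2 experiments. The peptide transporters PTR5 and OPT7 changed by 1.42 and 1.41, the amino acid carrier UMAMIT31 by 1.15, the MATE efflux protein AT1G66760 by 3.19, the cation exchanger CHX16 by 1.37 and SIP1;2, an aquaporin relative of internal membranes, by 2.85. Of these genes and AT3G05400, 13 in all, 4 remained called without either -S array, 9 without 1 resupply array, 13 without the first FN array, 10 without the replicate block and 4 in the fit of only the FN and -S arrays.

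Of 4 tested members of the nitrate uptake list, 0 were called, and 2 were higher in both experiments and 2 opposite. All 4 are named only through the study's table of large experiment 1 ratios, so a larger ratio in that experiment follows from the choice. NRT1.8, which removes nitrate from xylem sap, had 46.3 and 236.2 in FN and 712.2 and 521.3 in -S and was not called (2.32, adjusted p = 0.12). NRT2:1, the high-affinity nitrate transporter of roots, had 45.2 in FN and 261.8 in -S in experiment 1, but 179.7 and 61.7 in experiment 2. The direction of NRT2:1 was thus opposite in the 2 experiments. The urea transporter DUR3 (107.7 and 577.3 in experiment 1, 253.7 and 241.0 in experiment 2, FN first) and the ammonium transporter AMT1;1 (163.9 and 550.8, then 638.3 and 512.6) were higher in -S only in experiment 1.

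Polyamine, methionine and other amino acid genes gave single calls. Of the polyamine list only 2 members could be tested, ADC2, called higher, and 1 other that was not. MGL, methionine gamma-lyase, which breaks methionine down, had 41.6 and 58.1 in FN and 296.6 and 167.5 in -S, a change of 1.87 (SE 0.27, adjusted p = 0.024). HMT3, a homocysteine methyltransferase that makes methionine, went the other way, with 52.5 and 149.8 in FN and 4.9 and 13.1 in -S, at least 5.57-fold lower, since both -S signals lay below the floor. GAT1_2.1, a glutamine amidotransferase, also fell, from 50.6 and 28 to 2.7 and 3.8, both below the floor, at least 2.36-fold lower (adjusted p = 0.025). The call on MGL was lost when the first -S array or any 1 resupply array was left out, and that on HMT3 when the second -S array was.

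Glutathione S-transferases, which join glutathione to reactive or foreign compounds, moved in both directions. Of 19 tested, 12 were higher and 5 lower in both experiments, with a median of 0.685. Over all probe sets, 38.9% were higher and 29.0% lower in both. The test called 4 higher and 1, GSTU20, lower. GSTU20 belongs to the glucosinolate list that served as a check, so outside that list only rises were called. Of the 12 named by the array annotation, 6 were higher and 5 lower in both experiments. Of these 12, 1 was called higher and 1 lower, with a median of 0.242. The other 7 are named only through the study's tables, with 3 called higher and a median of 1.89. The upward lean of the list is therefore no independent evidence. The tau-class gene GSTU24 had 15.5 and 24.0 in FN and 438.2 and 107.4 in -S, a change of 2.74 (SE 0.45, adjusted p = 0.039). GSTU1 had 20.0 and 37.8 in FN and 206.2 and 148.0 in -S, a change of 2.12 (SE 0.26, adjusted p = 0.012). GSTU7 and GSTU27, already bright in FN, changed by 1.35 and 1.34. GSTU22, of the same class, had 27.7 and 29.3 in FN and 392.5 and 85.0 in -S and was not called (2.19, adjusted p = 0.073). None of the 4 rises lasted when either -S array was left out.

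Of the oxidative stress list, 1 of 6 tested members was called, higher. Other enzymes of redox balance, chosen after their values were seen, rose. DHAR2, dehydroascorbate reductase, which uses glutathione to regenerate ascorbate, had 198.9 and 227.7 in FN and 809.2 and 845.0 in -S, a change of 1.88 (adjusted p = 0.0013). Its neighbour AT1G75280 had 535.6 and 354.7 in FN and 3508.8 and 2842.5 in -S, a change of 2.81. MSRB5, methionine sulfoxide reductase, which repairs oxidised methionine, was bright in FN at 948.7 and 719.8 and reached 2902.9 and 2240.8 in -S, a change of 1.61. For each of these 3 genes the lower -S signal was above the higher FN signal, which is no added support, since they were picked with their values known. The cytochrome P450 gene CYP81D11 was below the floor in FN at 1.1 and 8.3 and had 163.8 and 94.0 in -S, at least 8.09-fold higher. The ABC transporter list, whose tested members are all named only through the study's tables, had 5 calls among 12 tested, all higher, with the vacuolar glutathione conjugate pump ABCC2 at 1.25, ABCC8 at 1.53 and ABCG23 at least 3.55-fold higher beside the suberin exporters named above. UDP-glycosyltransferases matched by name had 0 calls among 41 tested, with a median of 0.26.

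Single genes of other stress and hormone pathways were called. FER1, the plastid ferritin that stores iron, had 360.4 and 513.4 in FN and 1352.5 and 1121.6 in -S, a change of 1.48 (SE 0.19, adjusted p = 0.015). Of the iron uptake list, 5 of 28 members could be matched by name, 4 were tested and 0 of these were called, which leaves the other members of the list undescribed. LOX2, the plastid lipoxygenase of jasmonate synthesis, had 669.0 and 1157.1 in FN and 2988.5 and 2652.7 in -S, a change of 1.66 (SE 0.25, adjusted p = 0.029). AOS, the next enzyme of that pathway, had 53.4 and 189.0 in FN and 323.0 and 548.9 in -S and missed the limit (1.88, adjusted p = 0.069). Of 8 tested jasmonate genes LOX2 was the 1 called. All 8 had a higher signal in -S in both experiments, as had 38.9% of all probe sets. Of the 8, 5 are named only through the study's tables, so this direction is no independent evidence. The 3 named by the array annotation had a median of 0.295. RHL41, the zinc finger factor also called ZAT12, changed by 0.92 (adjusted p = 0.041). Of the 11 called genes GSTU24, GSTU1, GSTU7, GSTU27, CYP81D11, DHAR2, MSRB5, ABCC2, ABCC8, RHL41 and FER1, 2 lasted without the -S array of experiment 1, 4 without that of experiment 2, 4 or 7 without 1 resupply array, 10 without the first FN array, 7 when no block was fitted and 0 in the fit of only the FN and -S arrays, and the call on LOX2 was lost in 6 of the 8 fits that leave out 1 array.

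Of the anthocyanin genes, PAP1 was the 1 called, and its -S signal was higher in experiment 1. PAP1, a MYB factor that activates anthocyanin synthesis, was below the floor in FN at 5.8 and 5.1 and had 379.3 and 95.7 in -S, at least 12.4-fold higher (adjusted p = 0.018). Its close relative MYB90, also called PAP2, had 2.2 and 505.6 in experiment 1 but 27.1 and 42.5 in experiment 2, FN first, and was not called (2.64, adjusted p = 0.20). DFR, dihydroflavonol reductase, had 20.9 and 31.6 in FN and 181.7 and 103.7 in -S (1.88, adjusted p = 0.084). GSTF12, which carries flavonoids to the vacuole, had 7.7 and 19.4 in FN and 125.3 and 68.9 in -S (1.92, adjusted p = 0.069). Of 12 tested members of the list, 1 was called and 9 were higher in both experiments, as were 38.9% of all probe sets. Of the 12, 6 are named only through the study's tables. The call on PAP1 was lost in 4 of the 8 fits that leave out 1 array.

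Starch and sugar genes gave 1 call. BAM5, a beta-amylase, was called higher (1.01, adjusted p = 0.036, lost in 6 of the 8 fits that leave out 1 array), and 0 of the other 9 members were. GPT2, which moves glucose phosphate into plastids, had 12 and 71.8 in FN and 398.2 and 158.9 in -S and was not called (2.44, adjusted p = 0.15). MIPS3, myo-inositol phosphate synthase, rose from 77.8 and 80.9 to 217.2 and 144.6, a change of 1.02, and its call was lost in 7 of the 8 fits that leave out 1 array.

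Chloroplast genes lay on the low side in starved seedlings, without a single call. Of 69 plastid-encoded genes named by the array annotation, a group set after the data were seen, all were tested, and 63 had a lower signal in -S in both experiments, as had 29.0% of all probe sets. Their median log2 ratio was -1.11 in experiment 1 and -0.31 in experiment 2. The fitted median was -0.73, and 0 of the 69 were called, with psbA, which encodes a core protein of photosystem II, closest at an adjusted p of 0.099. The plastid transcripts of ribosomal proteins, with 15 of 15 lower in both experiments, and of the NDH complex, with 10 of 10, had medians of -0.86 and -0.91. Among single genes, ndhE, an NDH subunit, had 444.5 in FN and 37.6 in -S in experiment 1, then 625.0 and 366.6. The photosystem I gene psaC had 478.5 and 43.9, then 1118.9 and 951.7, whereas psaA, of the same complex, had 400.4 and 727.5, then 1837.3 and 1770.6. The genes of 1 complex thus differed in direction in experiment 1.

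The plastid level also varied among the starved and resupplied cultures. The median plastid signal was 422.3 in FN and 188.1 in -S in experiment 1, and it was 389.0 on the 30' S array and 169.7 on the 3 h S array of that experiment. In experiment 2 the 4 medians in the same order were 765.3, 591.0, 539.3 and 525.7. In experiment 1 the 30' S array thus lay near FN and the 3 h S array near -S. The 16 tested probe sets of mitochondrion-encoded genes had a median of -0.10, with 6 lower and 3 higher in both experiments.

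Nuclear genes for the chloroplast also lay on the low side. Of 27 tested nuclear genes whose RefSeq names hold a chloroplast or photosynthesis word, a rule set after the data were seen, 24 were lower in -S in both experiments, as were 29.0% of all probe sets. Their median was -0.635, with 0 calls. Their median signal in experiment 1 was 241.5 in FN and 95.3 in -S, 94.0 and 116.2 after resupply, so that FN stood apart from all 3 other arrays. In experiment 2 it was 216.1 in FN and 192.2, 158.7 and 158.9 on the others. The chlorophyll list showed the same, with 7 of its 8 tested members lower in both experiments, against that 29.0%, and a median of -1.08 with 0 calls. PORB, which makes chlorophyllide in light, had 604.5 in FN and 95.3 in -S in experiment 1, then 440.6 and 278.5 (-1.56, adjusted p = 0.13). CHLM, a methyltransferase of the magnesium branch, had 767.7 and 154.7, then 333.0 and 249.2 (-1.30, adjusted p = 0.17). HEMA2, glutamyl-tRNA reductase, was level at 54.4 and 54.7, then 51.5 and 51.8.

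Antenna and photosystem genes gave the same split by experiment. LHCB4.2, of the photosystem II antenna, had 1337.1 in FN and 374.5 in -S in experiment 1, then 1048.4 and 1013.1 (-0.92, adjusted p = 0.25), and PSAN, of photosystem I, had 1638.4 and 430.9, then 912.8 and 887.3 (-0.96, adjusted p = 0.25). In both, FN and -S were nearly level in experiment 2. Without the FN array of experiment 2, 37 plastid-encoded genes (and 1 higher), 20 of the 27 nuclear genes and 7 of the 8 chlorophyll genes were called lower, in a fit that called 2734 probe sets higher and 2126 lower in all. That fit rests on the single FN array of experiment 1.

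**Figure D4:**
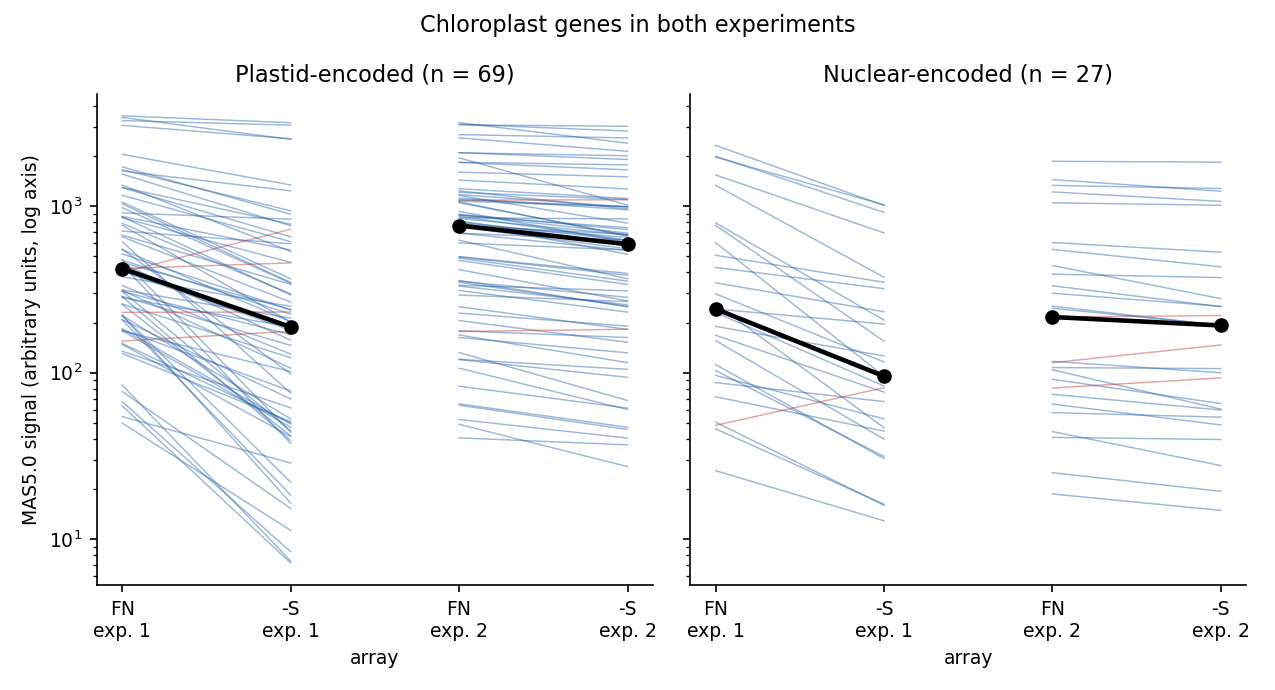
Signals of the 69 plastid-encoded genes (left) and of 27 nuclear-encoded genes with a chloroplast or photosynthesis name (right), in MAS5.0 units on a log axis, with a line from FN to -S for each gene within an experiment, blue where -S was lower and red where it was higher, and black for the median. The median falls from 422.3 to 188.1 (plastid) and from 241.5 to 95.3 (nuclear) in experiment 1, and from 765.3 to 591.0 and from 216.1 to 192.2 in experiment 2.

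Genes for recycling of cell contents showed no joint rise. Of 14 tested members of the senescence and autophagy list, 0 were called, with a median of 0.17. APG8A, an ATG8 protein that marks autophagosomes, had 483.6 and 437.0 in FN and 317.0 and 212.2 in -S (-0.79, adjusted p = 0.07), and ATG8E had 566.6 and 290.9 in FN and 215.7 and 239.1 in -S (-0.80, adjusted p = 0.28). Phosphate starvation genes had 0 calls among 5 tested, all 5 named only through the table of large experiment 1 ratios and all higher in both experiments.

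The largest falls outside the sulfur and glucosinolate lists were mostly of loci given in the tables used here by number only, so that a gene of either pathway may be among them. AT2G25510 had 347.7 and 2421.2 in FN and 77.2 and 206.0 in -S, a change of -2.71 (SE 0.33, adjusted p = 0.012). ECS1 had 280.5 and 2589.3 in FN and 111.3 and 430.0 in -S, a change of -1.88 (SE 0.29, adjusted p = 0.032). Both genes were several-fold brighter in the FN array of experiment 2 than in that of experiment 1, and for ECS1 the FN and -S ranges overlapped across experiments. ARF12, an auxin response factor, had 400.4 and 305.6 in FN and 29.1 and 58.0 in -S, a change of -2.66 (SE 0.28, adjusted p = 0.0063). AT1G23390 had 252.8 and 254.7 in FN and 17.0 and 67.9 in -S, a change of -2.36, and AT1G47400 had 168.1 and 143.4 in FN and 24.7 and 14.9 in -S, a change of -2.27 (adjusted p = 0.00065).

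The defensin-like genes PDF1.4 and PDF2.5 were among the falls, PDF2.5 chosen after its values were seen. Other defensin-like genes were not counted, so these do not describe the family. PDF1.4 had 84.8 and 85.3 in FN and 5.3 and 16.2 in -S, a change of -1.95 (SE 0.22, adjusted p = 0.0078), and PDF2.5 had 166.0 and 187.0 in FN and 66.4 and 74.4 in -S, a change of -1.16. Among the other falls, AT5G55450 was below the floor on both -S arrays (0.8 and 3.6, against 25.3 and 71.6 in FN), at least 2.67-fold lower. The other members of the 15 largest falls were AT3G20790 (-1.84), AT1G21440 (-1.78), AT5G05250 (-1.65), AT5G62340 (-1.59), AT2G31790 (-1.57), AT3G57010 (-1.55), AT2G18400 (-1.54) and HMT3, given above. Of the 15, 3 lasted without the -S array of experiment 1, 5 without that of experiment 2, 10 without a 30' S array, 7 without a 3 h S array and 15 without the first FN array, and AT1G47400 was the 1 that lasted in every fit that left out 1 array. Without the replicate block 5 were called, and in the fit of only the FN and -S arrays 1 was.

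Further falls were of regulators and cytochrome P450 genes, a family with 2 calls higher and 6 lower among 28 tested, glucosinolate enzymes included. RR16, a type-A response regulator induced by cytokinin (also called ARR16), had 263.3 and 175.7 in FN and 81.1 and 53.2 in -S, a change of -1.50 (SE 0.20, adjusted p = 0.016). Its relative RR5 had 77.9 and 93.1 in FN and 37.1 and 54.8 in -S and missed the limit (-0.72, adjusted p = 0.077). AT3G10040, the trihelix factor HRA1 that dampens the hypoxia response, was below the floor on both -S arrays (3.4 and 10.7, against 21.5 and 30.0 in FN), at least 1.59-fold lower. CYP71B24 and CYP71B22 changed by -1.33 and -0.99. Of RR16, AT3G10040, PDF2.5, GAT1_2.1, CYP71B24 and CYP71B22, 0 lasted when either -S array or a 3 h S array was left out, 1 without a 30' S array, 5 without the first FN array, 2 when no block was fitted and 0 in the fit of only the FN and -S arrays.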

How the data were processed

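Biotin-labelled cRNA from whole Col-0 seedlings was hybridised to ATH1 arrays. The authors computed MAS5.0 signal intensities, and the deposited table holds 22746 probe sets on a linear scale; none of the sources used here gives the scaling target. The floor of an array was the signal at the share of probe sets that the authors called absent. The 5608 probe sets that reached the floor on fewer than 2 arrays were left out, and log2(signal + 16) of the other 17138 was fitted with limma 3.58.1 in R 4.3.3 (lmFit, eBayes) over all 8 arrays, with condition and experiment as terms; adjusted p-values are Benjamini-Hochberg over all 17138. Summaries used Python 3.11.15, pandas 2.3.3 and numpy 2.4.6, and figures matplotlib 3.10.9. The fit was tested on simulated data.

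Experiment numbers come from the sample titles, and the study forms its ratios within an experiment. Deviations of same-numbered arrays correlated between 0.079 (FN and 30' S) and 0.709 (-S and 3 h S), with 0.311 for FN and -S. Each condition has 2 arrays. With experiment as a block, p-values rest on how far differences between conditions varied between the 2 experiments. That spread was pooled over all 8 arrays, resupplied cultures included, and moderated by eBayes. The number of arrays limits the precision. A fold against a condition below the floor on both arrays is given as at least N-fold.

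Of the probe sets, 13513 were named by the array annotation, 775 only by the study's tables, 503 match several genes and 7955 have no gene name here. Gene names follow RefSeq (TAIR10.1).

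Genes were named by this rule: the 15 largest rises and 15 largest falls among called probe sets outside the sulfur and glucosinolate lists, and in each gene list the called members and the largest rise and fall, at most 4 for a family. Chosen after their values were seen were PELPK2, the 3 CASPL genes, GH9B8, SWEET13, SFP1, ESL1, GDU4, OPT7, CHX16, DHAR2, AT1G75280, MSRB5, GSTU27, GSTU22, ABCC2, MIPS3, CYP86A1, MYB93, MYB41, DFR, GSTF12, NRT2:1, AMT1;1, DUR3, GAT1_2.1, PDF2.5, CYP71B24, CYP71B22, AT5G37980, psbA, ndhE, psaC, psaA, CHLM, APG8A, RR5, PCC1, WAK1 and PNP-A. The members and lists were chosen with earlier results of these data known.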

Additional observations from a re-analysis of the deposited data

How the results depend on the processing

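The counts of probe sets called depended on the processing more than the directions did: none of the genes given with a fitted fold change turned direction under the alternatives run. The fit as reported called 150 higher and 93 lower. No replicate block gave 84 and 35, only the FN and -S arrays with the block 26 and 10, no offset 94 and 39, and no filter 68 and 43. The methods' test called 0 and 0 after adjustment, with 531 probe sets at an unadjusted p under 0.05. Leaving out 1 array in turn gave 34 to 2734 higher and 13 to 2126 lower; both lowest counts came without the -S array of experiment 1 and both highest without the FN array of experiment 2. Quantile normalization gave 173 and 121, median centring 149 and 97, and an offset of 64 gave 126 and 96. The cause of these differences was not tested. By the fold rule, 225 and 136 became 607 and 249 with no floor, 54 and 20 with a 5-fold limit, 1502 and 1252 in experiment 1 alone, and 343 and 377 in experiment 2 alone. The median log2 fold change over all probe sets was 0.0503, 0.0136 after quantile normalization and 0.00402 after median centring. With 2 arrays per condition and no raw array files used here, signals under the floor give bounds only.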

Other observations

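A few genes, chosen for this pattern after their values were seen, were bright on a single array, the FN array of experiment 2. PCC1 had 462.0 there and 1.4 to 14.2 on the other 7 arrays. WAK1, a wall-associated kinase, had 361.9 there and 16 to 70 elsewhere, and PNP-A had 174.6 there and 0.9 to 48.5 elsewhere. The FN array of experiment 1 stood out for more probe sets. Of 849 with a log2 ratio below -1 in experiment 1 only, that array was the highest of all 8 for 736. Of 73 below -1 in experiment 2 only, the FN array of experiment 2 was the highest for 65. A high FN signal follows in part from choosing low ratios.

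Some called genes stood next to each other on the chromosome, most did not. By gene order in RefSeq, 136 genes were called higher, sulfur genes such as SULTR1;2 and SULTR2;1 included, and 19 of them formed 10 neighbouring pairs. Of their 106 tested neighbours, 20 were called higher (18.9%), against 1.41% of all genes. Of the 65 genes called lower, 1 pair were neighbours. Pairs included FAR4 with FAR5, PELPK1 with PELPK2, and AT5G37980 with AT5G37990. Whether probes of neighbouring relatives hybridise to each other's transcripts was not tested.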
